A study of Mus musculus with 4 samples.

Results

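The 33 genes described here encode enzymes that build nucleotides and supply the folate-bound one-carbon units this needs. They were taken by symbol from the 16545 symbols of the deposited comparison, with the transcripts of a symbol summed, and all 33 were found. By role, 13 belong to purine synthesis and salvage, 4 to pyrimidine synthesis, 4 to supply shared by both branches, 7 to deoxynucleotides and 5 to folate one-carbon metabolism. The cells were mouse MLL-AF9 leukaemic cells on the C57BL/6 strain, taken from bone marrow and grown in liquid culture, a myeloid leukaemia model driven by the MLL-AF9 fusion. The genotype given for the series, shared by both groups, was Ring1a-/-;Ring1bf/f Cdkn2a-/-: null for RING1A (gene Ring1), floxed for RING1B (gene Rnf2) and null for Cdkn2a. Treatment lasted 72 h, with OHT (usually short for hydroxytamoxifen, which switches on inducible Cre recombinases) or with the ethanol vehicle (EtOH), 2 samples each. The labels name no Cre driver and do not say whether samples were separate cultures or mice, so p-values measure the spread between these samples only. Cells given OHT but lacking floxed Rnf2 were not analysed here, so OHT and a loss of RING1B cannot be told apart.

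Purine synthesis assembles the ring stepwise on phosphoribosyl pyrophosphate until inosine monophosphate, from which adenine and guanine nucleotides branch. Pyrimidine synthesis makes the ring first and then attaches the sugar. Ribonucleotide reductase turns ribonucleotides into the deoxynucleotides that DNA replication consumes, and folate carries the one-carbon units used for the purine ring and for thymidylate. Dividing leukaemic cells are known to lean on these pathways, which are targets of antimetabolite drugs.

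Whole reads of 2 libraries per group were recovered from the deposited group means, and the library with the larger size factor is called A and the other B in each group. Neither letter is tied to a replicate number. Totals ran from 3841243 to 6255320 reads, and normalised reads are reads divided by the library's size factor. Rnf2 itself was listed at 636 with EtOH and 757 with OHT in the authors' deposited table (adjusted p = 1), which does not check the labels, since the deleted exons are not stated. Ring1 and Cdkn2a, null by the genotype given, were also listed there, at 68.3 and 122 and at 79.7 and 80.1 as EtOH and OHT means. All 16 blast markers were measured, and the authors' deposited table called none, while limma-voom called Csf1r higher (229 and 124 normalised reads with EtOH, 1471 and 746 with OHT, adjusted p = 0.00378). Spi1 and Cebpa, myeloid transcription factors, had normalised reads of 1193 to 1510.4 and 1008 to 1291 per library. Some other blast markers were scarce or uneven: Kit had 4 and 0 reads with EtOH and 3 and 5 with OHT. Mpo had 18.2 and 160 normalised reads in EtOH libraries A and B and 351 and 50.2 in OHT libraries A and B. Elane had 110 and 527 against 504 and 160. The T cell list summed to 2.23 to 4.20 normalised reads per library over 4 measured markers. Macrophage markers moved with the groups: 6 of 10 measured were called higher with OHT in the authors' deposited table. That table called 3.94% of all symbols higher, and 5.80% of those whose larger group mean reached 100. Summed normalised reads of the 10 were 2607 and 969 in EtOH libraries A and B and 4331 and 5548 in OHT libraries A and B. Most of these came from Emr1 (1882 and 634 against 2375 and 3315) and Cd68 (509 and 220 against 819 and 1214), which that table did not call. Limma-voom called Cd68 higher (1.51 ± 0.35 SE, adjusted p = 0.0197) but not Emr1 (1.35 ± 0.41 SE, adjusted p = 0.0515). Of 8 measured neutrophil markers, 3 were called higher in the authors' deposited table, against the same 3.94% of all symbols. The 8 summed to 6715 and 7469 with EtOH against 12027 and 11672 with OHT. Those not called, Camp, Ltf, Ngp, S100a8 and S100a9, had overlapping groups, with log2 ratios from -1.01 (Ltf) to 0.38 (S100a9). Those called were C1qa, C1qb, C1qc, Marco, Mertk and Msr1 of macrophages and Cxcr2, Mmp8 and Mmp9 of neutrophils. Epor of the erythroid list (means of 7.22 and 67.3, adjusted p = 0.00631) and Col1a1 of the stromal list (5.33 and 30.3, adjusted p = 0.0361) were also called higher in the authors' deposited table. The part of other cell types in the results below was not tested.

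The 11 genes called lower with OHT were 3 of 13 in the purine group, 3 of 4 in pyrimidine synthesis, 1 of 4 in shared supply, 1 of 7 for deoxynucleotides and 3 of 5 in folate metabolism. In the authors' deposited table the ratio of summed means was below 1 for 32 of 33 genes, the exception being Impdh1 at 974 and 975, and those 11 passed the threshold of 0.05 there. The ratio was below 1 for 48.3% of all symbols and for 59.8% of those whose larger group mean reached 100. Called lower were 2.02% of all symbols (1.85% of transcripts) and 4.10% of the 7710 symbols whose larger group mean reached 100. Called higher were 3.94% of symbols (3.62% of transcripts) and 5.80% of those 7710, and none of the 33. Both OHT libraries lay below both EtOH libraries for 28 of the 33, against 25.5% of all symbols and 39.8% of symbols at that level. None of the 33 had both OHT libraries above both EtOH libraries, against 27.2% and 24.6%. The median log2 ratio of the 33 was -0.82, against 0.03 over all symbols. For the 26 of them at that level it was -0.66, against -0.13 over symbols at that level. In bulk RNA, fewer cells that express a gene and less of its RNA per cell cannot be told apart.

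Limma-voom, fitted to reads summed per symbol over 11072 symbols, called 13 of the 32 genes it could fit, the same 11 plus Adsl and Dctd, and none higher. It called 5.68% of all fitted symbols lower and 1110 higher, and of the 7710 at that level 7.65% lower and 9.04% higher. Leaving out a library left an arm of 1 sample, which is then assumed to vary like the other group. The share of all fitted symbols called lower also changed with the library left out. The counts that follow are therefore not a result about these genes alone. Without OHT library A limma-voom called 0 of the 32 genes (0 higher, 121 of 10436 symbols lower in all), with 11 when OHT library B was left out, 15 when EtOH library A was and 10 when EtOH library B was. The median log2 fold change of the 32 genes was -0.85, against -0.65 when OHT library A was left out and -1.02 when OHT library B was. The folds of all 13 kept their sign without OHT library A, with -1.01 for Prps1 (-1.14 with all 4), -1.004 for Dhodh (-1.14) and -0.91 for Ppat (-1.08), and with larger shifts for Gart (-0.76, from -1.06) and Mthfd2 (-0.78, from -1.10). OHT library A had the lowest normalised reads of the 4 libraries for 29 of the 33 genes. The same share over all symbols is not given here, so whether this is particular to these genes cannot be told.

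**Figure D1:**
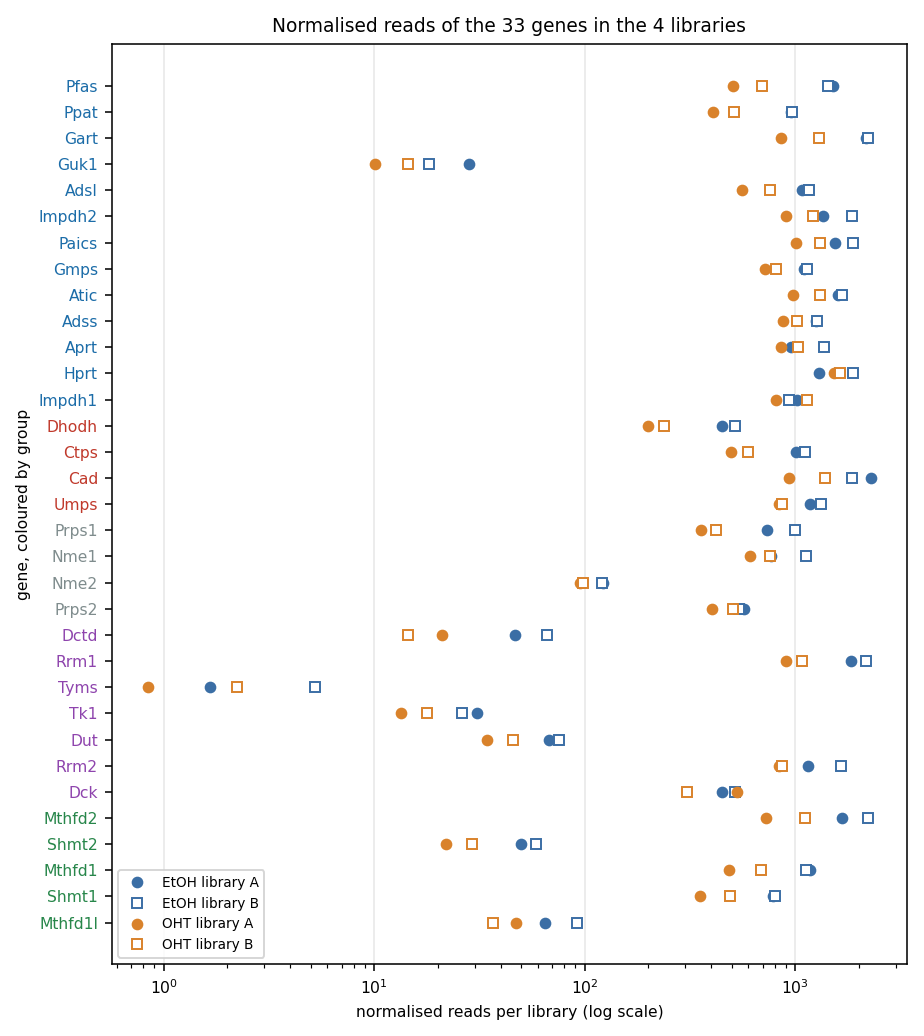
Normalised reads of the 33 genes (log axis) in EtOH libraries A and B (blue) and OHT libraries A and B (orange), with gene names coloured by group. Both OHT libraries lie to the left of both EtOH libraries for 28 genes, and 8 genes sit at a low level.

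**Figure D2:**
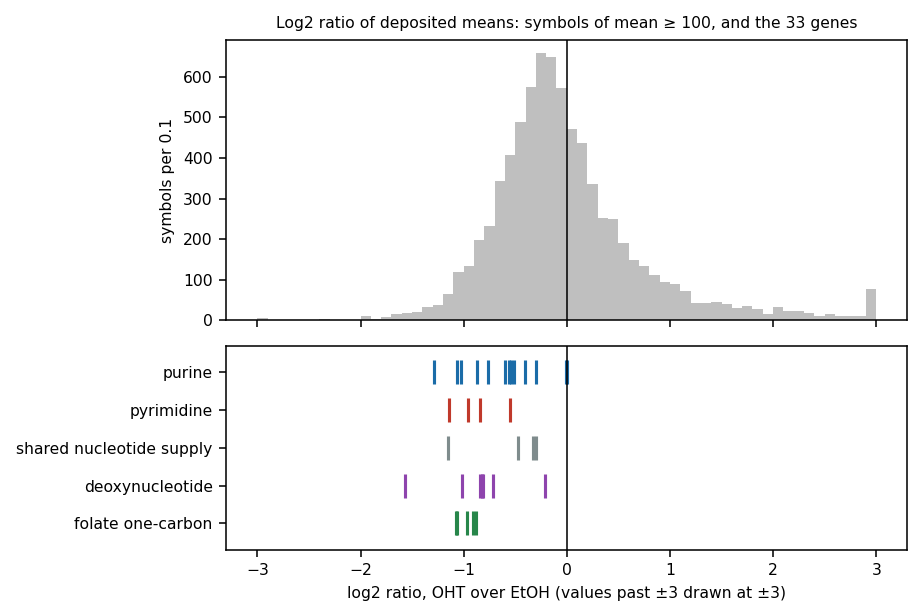
Histogram of the log2 ratio of deposited means (OHT over EtOH) for the 7710 symbols whose larger group mean reached 100, above ticks for the 33 genes by group. The symbols centre on a median of -0.13, with 59.8% of them below 0, and 32 of the 33 ticks lie below 0.

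Of the 6 genes that lead to inosine monophosphate, 3 fell in the authors' deposited table, against 4.10% of symbols at a mean of at least 100. All 6 had both OHT libraries below both EtOH libraries, against 39.8% of symbols at that level. Pfas, which makes the amidine intermediate with nitrogen from glutamine, had 1508 and 1424 normalised reads in EtOH libraries A and B and 504 and 698 in OHT libraries A and B. It fell 2.44-fold in the authors' deposited table (adjusted p = 0.000221), the largest fold among genes with a mean of at least 100. Limma-voom put Pfas at -1.31 ± 0.22 (SE, adjusted p = 0.00571), and at -1.07 without OHT library A (adjusted p = 0.0504). Ppat, the committing step of the pathway, had 955 and 966 normalised reads with EtOH against 408 and 510.2 with OHT. The EtOH libraries nearly coincided, and the authors' deposited table gave a 2.09-fold fall (adjusted p = 0.00633). Gart, a trifunctional enzyme of the early ring steps, had 2177 and 2208 against 857 and 1295 normalised reads. By the authors' deposited table it fell 2.04-fold (adjusted p = 0.00468), with OHT library A well below OHT library B.

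Adsl, which acts once before inosine monophosphate and again on the way to AMP, had 1072 and 1163 normalised reads with EtOH and 559 and 760.3 with OHT. Its groups did not overlap, but the authors' deposited table gave it 0.0885 as adjusted p, and only limma-voom called it (-0.78 ± 0.22 SE, adjusted p = 0.0401). It was lost without EtOH library B (-0.72, adjusted p = 0.0756), OHT library A (-0.55, 0.4997) or OHT library B (-0.996, 0.0512). Paics, a bifunctional enzyme of the middle steps, had 1554 and 1875 against 1007 and 1311 normalised reads. Atic, which closes the ring with a formyl group from folate, had 1605 and 1665 against 982 and 1309.5. Neither passed the test of the authors' deposited table (adjusted p = 0.313 and 0.358), with ratios of 1.48 and 1.43 (EtOH over OHT).

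Paics and Ppat lie on opposite strands with annotated starts 276 bases apart, each start inside the other gene, so that they overlap over this stretch. Reads of Paics per read of Ppat numbered 1.63 and 1.94 in EtOH libraries A and B and 2.47 and 2.57 in OHT libraries A and B. The ratio was higher in both OHT libraries than in both EtOH libraries, which was not tested. Strand was not kept by the kit, so reads from the shared stretch cannot be told apart. The 250 bases before each start lie wholly in annotated exons. Short stretches of their windows, 30 bases each and given 5′ to 3′ on the gene's strand, show the motif letters found before each start. In Paics (chr5:76951087-76951116, plus strand, GRCm38.p6) the capitals mark an E-box, the Myc-family site, and in Ppat (chr5:76951718-76951747, minus strand) they mark E2F letters:
Paics: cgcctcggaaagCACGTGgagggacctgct
Ppat: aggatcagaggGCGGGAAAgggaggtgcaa

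After inosine monophosphate, on the branches to guanine and adenine nucleotides, none of 4 genes was called by limma-voom or in the authors' deposited table. Their median log2 ratio was -0.48, against -0.89 for the 6 before, a difference that was not tested. Impdh2, the inducible form of the rate-limiting enzyme of guanine nucleotide synthesis, had 1358 and 1854 normalised reads with EtOH and 901 and 1221 with OHT. Its isoform Impdh1 had 1016 and 930 against 808 and 1141, with overlapping groups. For Impdh2 the limma-voom log2 fold change was -0.60 ± 0.24 (SE, adjusted p = 0.116), and for Impdh1 it was -0.022 ± 0.23 (SE, adjusted p = 0.959). Impdh2 was called without EtOH library A (-0.81, adjusted p = 0.0390), and whether the 2 isoforms differed was not tested. Gmps, which aminates XMP to GMP, had 1100.4 and 1139 against 721 and 815, and Adss, the first step towards AMP, 1258 and 1264 against 878 and 1022. Both had non-overlapping groups, with limma-voom adjusted p of 0.0907 and 0.186.

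E-box letters were found in the windows of Atic (chr1:71557137-71557166, plus strand) and Impdh2 (chr9:108560314-108560343, plus strand), shown for 30 bases with the E-box in capitals:
Atic: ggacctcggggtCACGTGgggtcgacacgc
Impdh2: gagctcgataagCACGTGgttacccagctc

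None of the salvage enzymes or Guk1 was called. Hprt, which recycles hypoxanthine and guanine, had 1291 and 1879 normalised reads with EtOH and 1529 and 1629.9 with OHT, so that both OHT libraries lay between the EtOH libraries. In limma-voom Hprt stood at 0.021 ± 0.23 (SE, adjusted p = 0.961). Aprt, which recycles adenine, had 952 and 1372 against 857 and 1037, with overlapping groups and a limma-voom log2 fold change of -0.28 ± 0.24 (SE, adjusted p = 0.460). Both had more reads per base of transcript than any other of the 33 genes. Guk1, guanylate kinase, was measured on few reads, 34 and 14 with EtOH and 12 and 13 with OHT before normalisation.

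Pyrimidine synthesis fell in 3 of its 4 genes in the authors' deposited table, against 4.10% of symbols at a mean of at least 100. Both OHT libraries lay below both EtOH libraries for all 4, against 39.8% of symbols at that level. Cad, the trifunctional enzyme that starts the pathway, had 2293 and 1857 normalised reads in EtOH libraries A and B and 933 and 1383 in OHT libraries A and B. The authors' deposited table gave a 1.79-fold fall (adjusted p = 0.0307), and limma-voom lost Cad without EtOH library A (-0.70, adjusted p = 0.0844) and without OHT library A (-0.58, adjusted p = 0.412). Dhodh, the mitochondrial step coupled to the respiratory chain, had 447 and 520 against 199 and 239. It fell 2.202-fold in the authors' deposited table (adjusted p = 0.00841), the largest ratio of the 4. Ctps, which aminates UTP to CTP, had 1005 and 1118 against 496 and 597. It fell 1.94-fold in the authors' deposited table (adjusted p = 0.0202). Umps, which completes UMP, had 1172 and 1329 against 839.9 and 869.7, a ratio of 1.46 (EtOH over OHT) that did not pass the test (adjusted p = 0.381 in the authors' deposited table, 0.0907 in limma-voom).

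Of the 4 genes shared by both branches, 1 fell in the authors' deposited table, against 4.10% of symbols at a mean of at least 100. Prps1, which makes phosphoribosyl pyrophosphate, had 736 and 995 normalised reads with EtOH and 357 and 422 with OHT, and fell 2.22-fold in the authors' deposited table (adjusted p = 0.0122). The isoform Prps2 had 573 and 542 against 403 and 505, which the authors' deposited table did not call (adjusted p = 0.855). The limma-voom log2 fold changes of the 2 isoforms were -1.14 ± 0.23 and -0.31 ± 0.22 (SE), and their difference was not tested. The nucleoside diphosphate kinases Nme1 and Nme2 are close paralogues and neighbours, so that shared reads may be split between them. Nme1 had 766 and 1130.2 against 607 and 759, and Nme2 121.9 and 121.1 against 94.9 and 98.2, and neither passed the test (limma-voom adjusted p of 0.235 and 0.480), though Nme1 was called without EtOH library A (-0.73, adjusted p = 0.0384).

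The window of Prps1 (chrX:140456353-140456602, plus strand, GRCm38.p6) holds the bases before the start, with CCAAT and GC box letters on either strand in capitals:
Prps1: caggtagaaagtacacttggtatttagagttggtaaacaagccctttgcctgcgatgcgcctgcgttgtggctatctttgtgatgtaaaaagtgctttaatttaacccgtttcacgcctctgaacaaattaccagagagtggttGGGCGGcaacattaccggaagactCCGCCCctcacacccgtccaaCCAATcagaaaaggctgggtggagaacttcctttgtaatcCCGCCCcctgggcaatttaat

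Ribonucleotide reductase is the gate to deoxynucleotides, and its large subunit Rrm1 fell. Rrm1 had 1848 and 2176 normalised reads in EtOH libraries A and B and 902 and 1082 in OHT libraries A and B, a 2.03-fold fall by the authors' deposited table (adjusted p = 0.00878). The small subunit Rrm2, whose protein is degraded outside S phase, had 1146 and 1648 against 842 and 862. Its groups did not overlap, but it did not pass the test (adjusted p = 0.332 in the authors' deposited table). In limma-voom Rrm2 had a log2 fold change of -0.69 ± 0.23 (SE, adjusted p = 0.0664), and it was called only without EtOH library A (-0.95, adjusted p = 0.0119) or with no filter on low counts (adjusted p = 0.0483). Dck, which phosphorylates salvaged deoxycytidine, had 449 and 518 against 528 and 306, with OHT library A above both EtOH libraries. Dck was the 1 gene of the 33 that was highest in OHT library A.

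The remaining deoxynucleotide genes were measured on few reads. Dctd, dCMP deaminase, had 56 and 51 reads with EtOH and 25 and 13 with OHT over its 2 transcripts, all but 1 of them on a non-coding transcript (NR_027759), so that the enzyme's coding transcript was hardly measured. They came to 46.4 and 66.4 against 20.997 and 14.5 normalised reads. Only limma-voom called it (-1.59 ± 0.46 SE, adjusted p = 0.0426), against 0.0814 in the authors' deposited table. It was lost without EtOH library B (-1.37, adjusted p = 0.0918), OHT library A (-1.87, 0.131) or OHT library B (-1.36, 0.199), with folds close to or larger than in the fit of all 4. Dut, which removes dUTP, had 68.0 and 75.5 against 34.4 and 45.8 normalised reads. Tk1, the S-phase thymidine kinase, had 30.7 and 26.0 against 13.4 and 17.9. Neither passed the test, with limma-voom adjusted p of 0.147 and 0.236, although the groups did not overlap. Tyms, thymidylate synthase, was present only as a non-coding transcript (NR_033402) with 2 and 4 reads against 1 and 2, so that its level was not measured here.

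The window of Rrm1 (chr7:102441445-102441694, plus strand, GRCm38.p6) holds 2 CCAAT boxes, in capitals:
Rrm1: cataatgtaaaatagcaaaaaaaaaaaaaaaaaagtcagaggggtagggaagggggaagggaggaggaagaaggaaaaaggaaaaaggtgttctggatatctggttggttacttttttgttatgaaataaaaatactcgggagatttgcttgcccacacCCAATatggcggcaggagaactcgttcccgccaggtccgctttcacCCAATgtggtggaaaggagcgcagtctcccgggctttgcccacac

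Folate one-carbon genes fell in 3 of 5 cases in the authors' deposited table, against 2.02% of all symbols and 4.10% at a mean of at least 100. Both OHT libraries lay below both EtOH libraries for all 5, against 25.5% of all symbols and 39.8% at that level. Mthfd2, the mitochondrial dehydrogenase and cyclohydrolase that is high in dividing cells, had 1670.2 and 2212 normalised reads with EtOH and 726 and 1114 with OHT. It fell 2.11-fold in the authors' deposited table (adjusted p = 0.0385). Mthfd1, its trifunctional cytosolic counterpart, had 1170.1 and 1119.8 against 487 and 687 and fell 1.95-fold in the authors' deposited table (adjusted p = 0.0123). Shmt1, the cytosolic enzyme that moves a one-carbon unit from serine to folate, had 784 and 805 against 353 and 492 and fell 1.88-fold in the authors' deposited table (adjusted p = 0.0287). Limma-voom lost Mthfd2 without EtOH library B (adjusted p = 0.0604) and without OHT library A (adjusted p = 0.206). The mitochondrial enzymes Shmt2 and Mthfd1l had low values, 49.8 and 58.6 against 21.8 and 29.03 for Shmt2 and 64.7 and 92.4 against 47.0 and 36.8 for Mthfd1l. Neither passed the test (limma-voom adjusted p of 0.1002 and 0.161).

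The window of Mthfd2 (chr6:83317607-83317854, minus strand, GRCm38.p6) holds 3 CCAAT boxes, 2 on the gene's strand and 1 on the other, in capitals:
Mthfd2: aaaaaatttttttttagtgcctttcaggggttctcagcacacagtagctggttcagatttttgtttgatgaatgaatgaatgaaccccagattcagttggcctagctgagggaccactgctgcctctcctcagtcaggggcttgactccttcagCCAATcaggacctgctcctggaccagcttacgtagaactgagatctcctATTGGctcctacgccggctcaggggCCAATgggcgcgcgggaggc

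**Figure D3:**
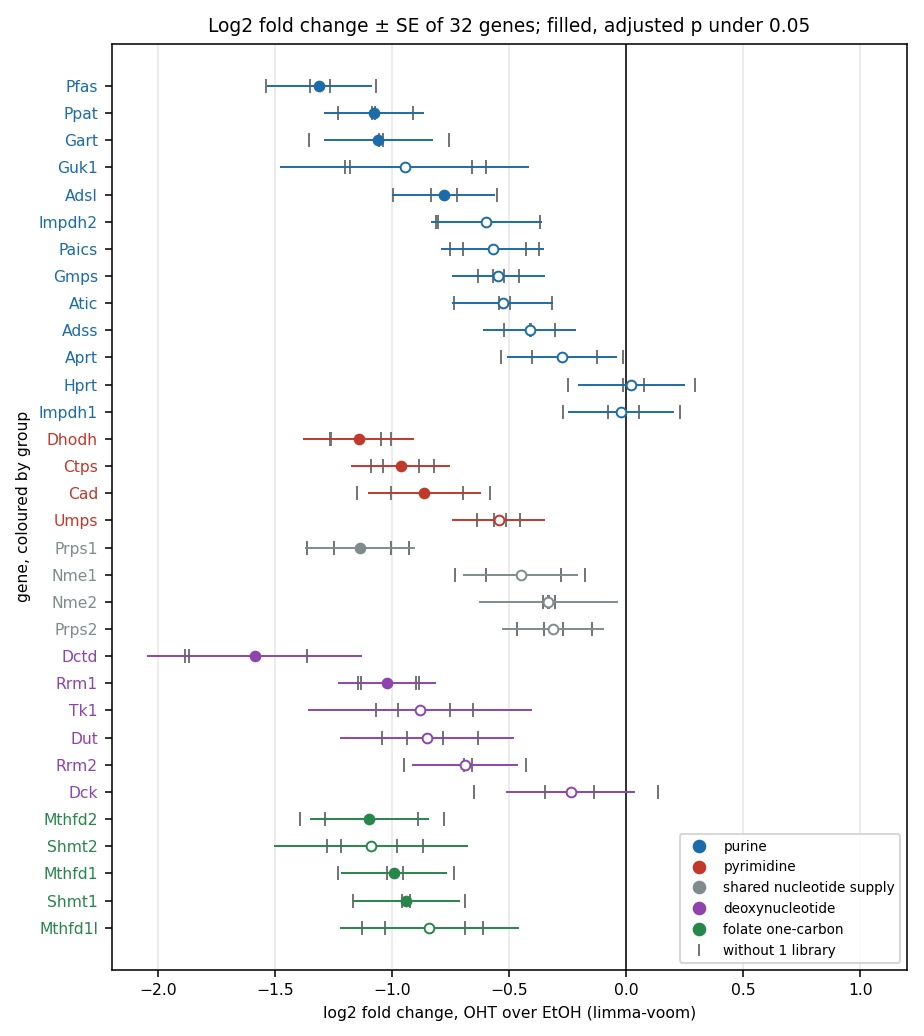
Log2 fold change of OHT over EtOH from limma-voom, ± SE, for the 32 fitted genes, filled where the adjusted p was under 0.05, with grey marks for the fits without 1 library. The 13 filled points lie between -1.59 and -0.78, and Hprt, Impdh1 and Dck have marks on both sides of 0.

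Of 24 measured other folate and one-carbon genes, 5 fell and 1 rose in the authors' deposited table, against 2.02% of all symbols called lower and 3.94% called higher. Fpgs, which adds the glutamates that retain folate in the cell, had 552 and 625 normalised reads with EtOH and 247 and 337 with OHT, and Ggh, which removes them, had 274 and 215 against 476 and 562. The pair moved in opposite directions, and the authors' deposited table gave an adjusted p of 0.0181 for Fpgs and 0.0205 for Ggh. Methionine synthase (Mtr) and its reductase (Mtrr) fell, from 633 and 478 to 244 and 338 and from 755 and 595 to 279 and 393. The mitochondrial formyl-folate dehydrogenase Aldh1l2 fell from 316 and 189 to 38.6 and 89.3 normalised reads. Of the genes named here, limma-voom called only Ggh without OHT library A (adjusted p = 0.0478), and it lost only Ggh without OHT library B (adjusted p = 0.104). Mtr was also not called without EtOH library A (adjusted p = 0.0550).

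The authors' deposited table called none of the 3 serine synthesis genes. All 3 had a ratio below 1, against 48.3% of all symbols and 59.8% at a mean of at least 100. All 3 also had both OHT libraries below both EtOH libraries, against 25.5% of all symbols and 39.8% at that level. Phgdh, the first step, had 1649 and 2091 normalised reads against 894 and 1349.7, and limma-voom gave -0.76 ± 0.25 (SE, adjusted p = 0.0629). Phgdh was called when EtOH library A (adjusted p = 0.0356) was left out and when OHT library B was (adjusted p = 0.0256), and Psph, the last step, without EtOH library A (adjusted p = 0.0396). Psph had 597 and 707 against 324 and 491, and Psat1 121 and 139 against 57.1 and 99.4. Of 25 measured genes of nucleotide breakdown, the authors' deposited table called 1 higher and 0 lower, a share near the 3.94% of all symbols called higher. The riser in that table was xanthine dehydrogenase (Xdh), which oxidises purines to urate, with 168 and 85.9 normalised reads against 541 and 424. Limma-voom called Xdh in the fit with all libraries (1.94 ± 0.33 SE, adjusted p = 0.00533) and without any 1 of the 4, including OHT library A (1.77). Its lowest log2 fold change there was 1.52, without EtOH library B.

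Of 28 measured other nucleoside kinases and salvage genes, the authors' deposited table called 2 higher and 0 lower, against 3.94% of all symbols called higher and 5.80% at a mean of at least 100. Limma-voom called 1 of them lower, Prps1l1, a paralogue of Prps1, with 15.8 and 26.04 normalised reads against 5.04 and 2.23 (adjusted p = 0.0439). The mitochondrial adenylate kinase family member Ak3 had 298 and 186 against 511 and 696 normalised reads, and the interferon-inducible Cmpk2 had 9.95 and 20.8 against 81.5 and 49.1. Limma-voom lost Ak3 without OHT library B (adjusted p = 0.0530) and Cmpk2 without EtOH library A (adjusted p = 0.0565) or OHT library A (adjusted p = 0.105). None of 7 measured nucleoside transporters passed the test there; the highest were Slc29a3 with 151 and 271, Slc29a2 with 127 and 81.0 and Slc28a2 with 121 and 61.4 as EtOH and OHT means of the authors' deposited table. None of 12 measured known regulators passed it either. Atf4, an activator of serine and one-carbon genes, was listed at 2138 and 1500.3, the Myc antagonist Mxd1 at 899.6 and 1599.8 and E2f2 at 754 and 817 in the authors' deposited table. Mxd1 was called higher by limma-voom (0.83 ± 0.20 SE, adjusted p = 0.0214), and Myc was not analysed here.

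Of 20 proliferation genes, 3 fell in the authors' deposited table, Cdt1, Mcm2 and Mcm6, against 2.02% of all symbols and 4.10% at a mean of at least 100. All 20 had a ratio below 1, against 48.3% of all symbols and 59.8% at a mean of at least 100. The median log2 ratio of the 20 was -0.71. Their summed normalised reads were 20895 and 24268 in EtOH libraries A and B and 12706 and 14183 in OHT libraries A and B, and their part in the change of the 33 genes was not tested. Limma-voom called 9 of the 18 it fitted lower, against 5.68% of all fitted symbols and 7.65% at a mean of at least 100. The calls of Cdt1, Mcm2 and Mcm6 were lost without OHT library A, where their log2 fold changes were -1.04, -0.94 and -0.86.

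Reads per base of transcript approached a limit that was alike in all libraries. The highest value among 17634 transcripts was 1.80, 1.76, 1.85 and 1.80 reads per base in EtOH libraries A and B and OHT libraries A and B, although totals differed 1.63-fold. Among 2618 transcripts at 0.1 to 0.25 reads per base the median ratio of reads in EtOH library B to library A was 0.580, near the ratio of their size factors of 0.637. Among 24 transcripts at 1.5 to 2 reads per base it was 0.981. Dividing by size factors then sets such transcripts higher in library B, and the spread of their folds was narrow: 90% lay within 0.24 of 0 on the log2 scale, against 1.01 at 0.1 to 0.25. None of those 24 was called in the authors' deposited table, against 9.13% of those at 0.1 to 0.25. Whether identical reads were collapsed is not given in the sources used here.

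Aprt and Hprt both averaged 1.22 reads per base over the 4 libraries, Impdh2 0.704, Mthfd2 0.668 and Paics 0.573, while Ppat, Pfas and Dhodh lay at 0.178, 0.162 and 0.170. When reads were restored under an assumed limit of 2 distinct reads per base, the log2 ratio was 0.12 for Hprt, -0.38 for Aprt, -1.27 for Mthfd2 and -1.30 for Pfas, and the median of the 32 fitted genes was -0.81. Level per length in EtOH, as normalised reads per kilobase, ran from 1369 for Aprt and 1230 for Hprt through 931 for Mthfd2 to 138 for Gmps among the 25 genes with an EtOH mean of 484 or more.

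**Figure D4:**
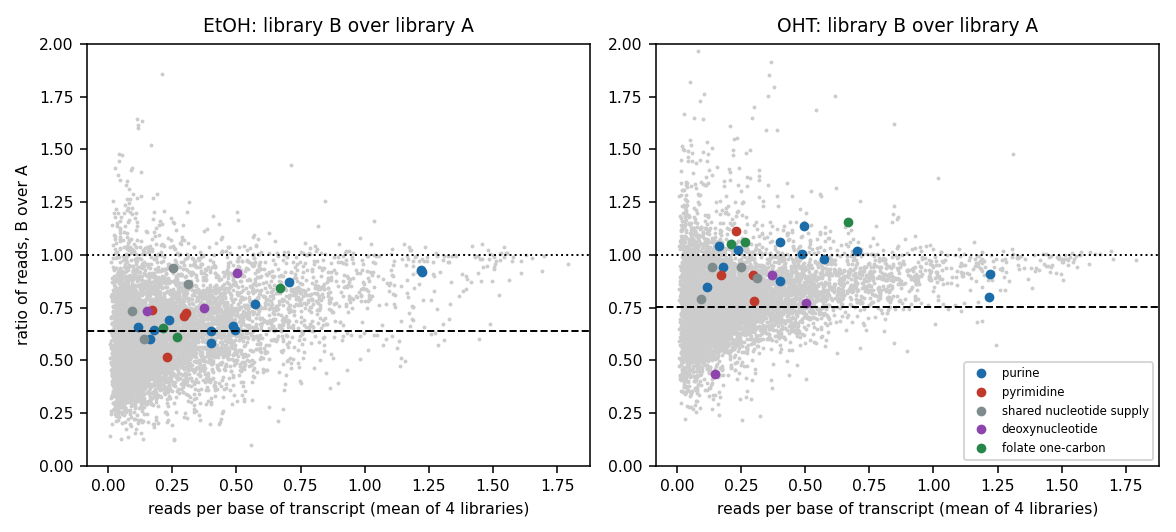
Ratio of recovered reads in library B to library A against reads per base of transcript, for EtOH (left) and OHT (right), for transcripts with at least 50 reads in every library (grey) and the genes described here (coloured). Dashed lines mark the ratio of size factors (0.637 and 0.752), dotted lines mark 1, and the ratios rise towards 1 as reads per base increase.

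The other 8 genes (Guk1, Nme2, Tyms, Dctd, Dut, Tk1, Shmt2 and Mthfd1l) had EtOH means of 4.50 to 124 in the authors' deposited table. All 8 have more than 1 curated transcript in the RefSeq annotation of GRCm38.p6, against 9 of the other 25 genes. Reads that fit several transcripts of a gene may have been left out of the counts for these genes, which was not tested, so their levels are not comparable with those of the others. Their log2 ratios were all below 0, against 48.3% of all symbols, and none of the 8 was called in the authors' deposited table.

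The windows from 250 bases before to 50 bases after each start were found in RefSeq for 31 of the 33 genes. The GC box (GGGCGG) was found on either strand in 26 of the 31 (83.9%), against 38.2% of 27025 genes with a window and 70.2% of 5865 symbols of this table with a mean of at least 100. CCAAT was found in 12 (38.7%), against 41.1% and 41.4%, and in 6 of the 9 windows of genes that fell. The E-box CACGTG was found in 5 (Atic, Impdh2, Nme1, Paics and Tyms), against 8.09% and 12.3%, and in none of the 9 windows of genes that fell in the authors' deposited table. E2F letters (TTTGGCGC or TTTCCCGC) were found in Ppat and Prps2 (1.80% of all windows and 3.75% of those 5865), the NRF1 motif in Ctps and Shmt2 (1.07% and 2.61%), and the ATF4 element TGATGNAAN in Prps1 (4.50% and 2.56%). GGGCGG and the reverse of TTTCCCGC can share the letters GCGG. The windows are of GRCm38.p6 and not of mm9, the build named for these data. A match is a description of letters and not a site in use. The window of Gart (chr16:91646973-91647222, minus strand), a purine gene that fell, shows 1 GC box and 1 CCAAT box in capitals:
Gart: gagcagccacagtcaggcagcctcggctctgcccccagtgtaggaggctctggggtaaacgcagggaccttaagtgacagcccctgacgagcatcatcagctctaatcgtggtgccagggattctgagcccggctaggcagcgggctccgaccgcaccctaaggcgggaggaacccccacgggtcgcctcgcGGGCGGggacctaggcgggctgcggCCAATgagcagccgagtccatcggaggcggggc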

How the data were processed

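RNA-seq was done on 4 samples of mouse leukaemic cells, 2 per group, from libraries made with TruSeq RNA v2, per the labels' protocols. TopHat, DESeq and mm9 are listed in the submitters' processing notes, with no version or role, and the read counter is not given in the sources used here. The deposited table holds 18061 RefSeq transcripts. Per the file headers, its signal columns are base means, which the values show to be normalised reads averaged by the authors over the 2 libraries of a group. The deposited ratio is the OHT mean over the EtOH mean, the deposited log2 column is its log2, and the deposited p-value columns give a p and an adjusted p.

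Each mean had 1 solution in whole reads of 2 libraries, when every library's count was raised by 1 read and divided by a size factor (1.21 and 0.768 for EtOH, 1.19 and 0.896 for OHT), for 100% of transcripts. After means were moved by up to 0.1%, 0.161% or fewer still solved. Recovery was tested on 4000 simulated means (100% recovered). Calls use the authors' deposited adjusted p at 0.05 on a gene's transcript with the highest mean. Limma-voom (limma 3.58.1, R 4.3.3) was fitted by group to reads summed per symbol, with at least 10 reads in 2 libraries, the recovered size factors, 2 residual degrees of freedom and Benjamini-Hochberg adjustment. On simulated reads of 10837 symbols with a set dispersion of 0.05 this fit recovered 2%, 24%, 98% and 100% of 1.5-, 2-, 4- and 8-fold changes.

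Transcript lengths came from GENCODE M21 by RefSeq ID, for 17634 transcripts. The members and lists were chosen with earlier results of these data known. All members were named, with values per library for those called or among the 12 largest ratios at a mean of at least 100, and beyond them the called genes of each list, or the 3 highest where none was called. Some results that this rule takes are not reported here. Alternatives were other scalings, filters, weights and transcript choices and leaving out each library. The columns hold no replicate numbers.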

Additional observations from a re-analysis of the deposited data

How the results depend on the processing

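The 11 calls of the authors' deposited table became 13 at an adjusted p of 0.10. In limma-voom on summed reads, 13 genes were called lower, 12 to 14 under TMM scaling, total-read scaling, no filter, a filter of 50 reads, quality weights, 1 transcript per symbol or transcripts fitted singly, and 16 at an adjusted p of 0.10. Leaving out 1 library gave 0 to 15 calls, with 0 without OHT library A, and medians of the fold change from -1.02 to -0.65. The share of all fitted symbols called lower also differed between those fits. Direction was kept under all settings run for every fitted gene but Impdh1, Hprt and Dck. The log2 fold change of Impdh1 (-0.022) was 0.0244 with TMM and 0.0320 with total reads, from -0.27 to 0.23 without 1 library, and 0.0459 with restored reads. Hprt ran from -0.25 to 0.29 and Dck from -0.65 to 0.14 without 1 library, and Dck was at 0.23 in the deeper library of each group alone. The cause was not tested. Restored reads and the deeper libraries were added after seeing the data. The authors' test could be repeated under no other scaling or filter. With few reads, Guk1, Tk1, Dut, Dctd, Shmt2 and Mthfd1l had standard errors of 0.37 to 0.53. No paired analysis was possible because the recovered libraries carry no replicate numbers.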
